A study of Mus musculus with 8 samples.

Results

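Blood vessels of the P3 mouse cortex were followed through 36 genes of endothelial cells, of the blood-brain barrier and of the mural cells that wrap the vessels. The genes were taken by symbol from a list of endothelial, barrier, pericyte and contractile mural markers. The list was drawn up with earlier results of these data known, and no test was run on the list as a whole. Each of the 36 symbols matched 1 of the 48709 genes counted in the RNA sequencing of whole cortex. BAF155 and BAF170, encoded by Smarcc1 and Smarcc2, are scaffold subunits of the BAF chromatin remodelling complex, and the study deleted both to follow glial development. In the 4 dcKO_hGFAP-Cre samples both genes were floxed on both alleles and the Cre allele was present. The 4 control samples are named WT in the sample titles and Control in the sample annotation, and the methods of the study give the control genotype as BAF155 fl/+, BAF170 fl/+ with the same Cre. Mutants and controls thus share hGFAP-Cre according to the methods, and all mice were C57BL/6J at postnatal day 3. hGFAP-Cre is driven by a human GFAP promoter and acts in radial glia of the dorsal telencephalon and their progeny, so that endothelial cells, which arise outside the neural lineage, are not among the cells it is designed to recombine. Mutants die soon after birth. Nothing in the labels says that the samples of a group came from separate litters, and p-values measure only the spread between these samples.

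Brain capillaries are lined by endothelial cells joined by tight junctions, which force nutrients, hormones and drugs to pass through dedicated transporters. VEGF and angiopoietin receptors control their growth and survival, SoxF and ETS transcription factors maintain endothelial identity, and Wnt ligands from neural cells induce barrier properties while the vessels grow into the cortex. Pericytes share the basement membrane with the endothelium and stabilise the capillary wall, and smooth muscle cells surround the larger vessels.

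The 4 control samples held between 21126713 and 31805395 counts each and the 4 dcKO_hGFAP-Cre samples between 22002784 and 32110285, and 3 counts corresponded to between 0.0906 and 0.148 CPM depending on the sample. Levels are given as CPM, the count of a gene relative to the total of its library scaled by TMM normalization, and fold changes as log2 of dcKO_hGFAP-Cre over control with the standard error (SE) and the Benjamini-Hochberg adjusted p of edgeR's quasi-likelihood test over 16525 genes, with a threshold of 0.05. Smarcc1 lay between 143.5 and 170.5 CPM in control and between 73.6 and 86.9 CPM in dcKO_hGFAP-Cre cortex (log2 fold change -0.97, SE 0.08, adjusted p = 5.44e-06), and Smarcc2 between 469.4 and 500.3 against between 256.0 and 319.2 CPM (-0.77, SE 0.08, adjusted p = 2.28e-05). The choroid plexus gene Ttr stood at 584 and 1128 CPM in the dcKO_hGFAP-Cre samples 1 and 2, against 15.8 and 1.72 CPM in the samples 3 and 4 and at most 9.37 CPM in control. Results that rest on these 2 samples are therefore also given without them.

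All 36 genes passed the filter on low counts. In dcKO_hGFAP-Cre cortex 17 of them (47.2%) were lower than in control at an adjusted p under 0.05 and 0 were higher, while 18.9% of all genes tested were lower, 18.6% higher and 37.5% changed in either direction. At an unadjusted p under 0.05 1 of the 36 was higher, Higd1b, and DESeq2 and limma-voom called 0 higher. The median log2 fold change over the 36 genes was -0.38, beside 0.02 over all genes tested. The 28 endothelial and barrier genes held 16 of the lower calls, with a median of -0.55, and the 8 pericyte and contractile genes held 1, with a median of 0.19. In 16 of the 36 genes every dcKO_hGFAP-Cre sample lay below every control sample and in 1 gene, Higd1b, above, against 17.7% and 16.7% of all genes tested, or 34.4% in either direction. These are whole cortices, in which fewer vessel cells and less RNA per vessel cell cannot be told apart. Scaling by library totals in place of TMM moved the median of all genes to 0.15, left 11 of the 36 genes lower and 2 higher (Kcnj8 and Higd1b), and changed the split over all genes from 3128 lower and 3074 higher to 2102 lower and 4584 higher. Without the dcKO_hGFAP-Cre samples 1 and 2, a setting chosen after seeing the data, 12 of the 36 genes were lower and 0 higher, with Tjp1, Flt4, Sox17, Sox18, Erg, Slco1c1 and Abcc9 no longer called and Abcb1a and Vwf added.

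**Figure D1:**
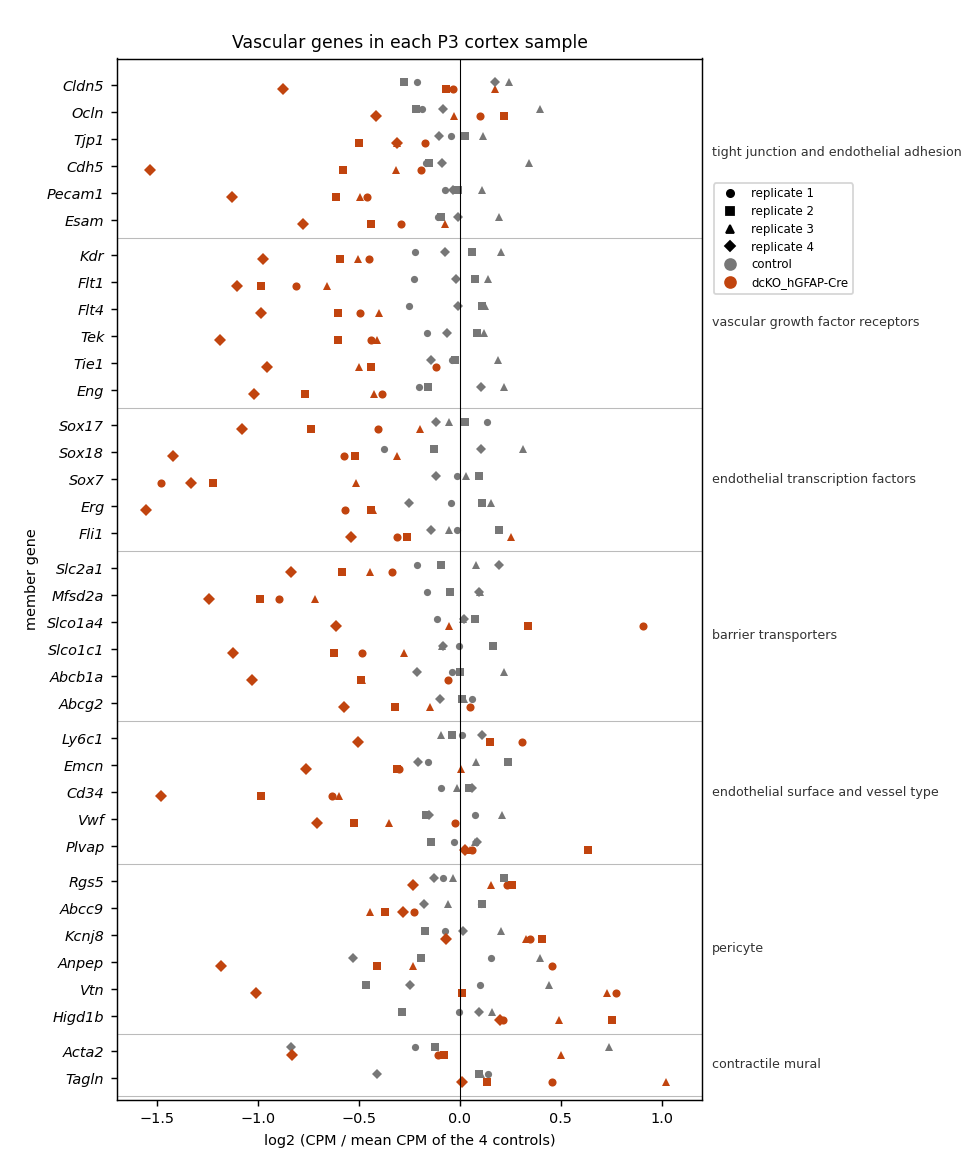
Level of each of the 36 vascular genes in each sample, as log2 of its CPM over the mean CPM of the 4 controls, with grey symbols for control and orange for dcKO_hGFAP-Cre, and the symbol shape giving the replicate number. The orange symbols of Flt1, Sox7, Mfsd2a and Cd34 all lie left of the grey ones, those of Rgs5, Vtn and Acta2 overlap them, and the diamond of dcKO_hGFAP-Cre sample 4 is the leftmost orange symbol in 26 of the 28 endothelial and barrier genes.

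The 6 receptors through which endothelial cells read vascular growth factors were all lower in dcKO_hGFAP-Cre cortex, with log2 fold changes between -0.88 and -0.48 and a median of -0.63. Kdr, the main signalling receptor for VEGF (ENSMUSG00000062960, chr5:75932827-75978458 on the minus strand of mm10), was measured at 39.3, 47.8, 52.8 and 43.6 CPM in control and at 33.5, 30.4, 32.3 and 23.3 CPM in dcKO_hGFAP-Cre samples. Flt1, which binds VEGF tightly and also exists as a soluble decoy that gene counts do not separate from the full receptor (chr5:147561604-147726011, minus strand), stood at 22.3, 27.6, 28.8 and 25.8 CPM in control and at 14.9, 13.2, 16.6 and 12.1 CPM in mutant cortex. No dcKO_hGFAP-Cre sample reached the lowest control for either gene. The change was -0.88 for Flt1 (SE 0.12, adjusted p = 0.000202) and -0.62 for Kdr (SE 0.13, adjusted p = 0.00237). Within a sample the ratio of Flt1 to Kdr was between 0.546 and 0.592 in control and 0.444, 0.433, 0.512 and 0.521 in mutant cortex, so that the ratios of the groups did not overlap either.

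Flt4, the receptor for VEGF-C and VEGF-D, was low in all samples, at 6.17, 7.94, 8.001 and 7.29 CPM in control and 5.22, 4.83, 5.56 and 3.71 CPM in dcKO_hGFAP-Cre cortex (-0.61, SE 0.16, adjusted p = 0.0106). Tek, the angiopoietin receptor also called Tie2 (chr4:94739289-94874976, plus strand), was at 12.7, 15.03, 15.4 and 13.6 CPM in control and 10.4, 9.32, 10.6 and 6.22 CPM in mutant cortex (-0.63, SE 0.16, adjusted p = 0.00908). The groups were again separated for both. Tie1, the partner of Tek that has no angiopoietin of its own, was at 23.7, 24.0, 27.7 and 22.0 CPM in control and 22.4, 17.9, 17.2 and 12.6 CPM in mutant cortex. Here dcKO_hGFAP-Cre sample 1 lay above the lowest control, and the fall of 0.48 on the log2 scale was the smallest of the 6 (SE 0.15, adjusted p = 0.0268). Eng, a co-receptor for TGF-beta and BMP ligands, was at 28.5, 29.4, 38.2 and 35.3 CPM in control and 25.2, 19.3, 24.5 and 16.2 CPM in mutant cortex, without overlap (-0.63, SE 0.15, adjusted p = 0.00583). The call of Tie1 was lost with library totals (adjusted p = 0.0924) and when control sample 2 or control sample 3 was left out (adjusted p up to 0.0860), while the other 5 receptors kept theirs in each of these settings.

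Among the 5 endothelial transcription factors, 4 were lower and the median log2 fold change was -0.66, the largest fall of the 7 groups of genes. Sox7, a SoxF factor that acts with Sox17 and Sox18 in building vessels (ENSMUSG00000063060, chr14:63943673-63950732, plus strand), had the largest fall of the 36 genes. It was measured at 6.86, 7.39, 7.07 and 6.39 CPM in control and at 2.48, 2.97, 4.84 and 2.75 CPM in dcKO_hGFAP-Cre cortex, which is 47.0% of the control mean (-1.08, SE 0.20, adjusted p = 0.00141). Sox18 was at 7.55, 8.97, 12.2 and 10.5 CPM in control and 6.58, 6.82, 7.88 and 3.65 CPM in mutant cortex (-0.66, SE 0.22, adjusted p = 0.0335), with sample 3 of the mutants above the lowest control. Sox17, which marks arterial endothelium, was at 4.42, 4.09, 3.88 and 3.71 CPM in control and 3.04, 2.42, 3.51 and 1.90 CPM in mutant cortex (-0.57, SE 0.20, adjusted p = 0.0406). All Sox17 values of the mutants were below those of the controls, but its exons overlap those of an opposite-strand gene, Gm37587. The library kit does not mark strand, so that reads of such a pair cannot be told apart. Exons of Eng (with Fpgs), Slc2a1 (Gm12868), Abcb1a (Gm42686) and Cd34 (Gm16897) also overlap an opposite-strand gene, as do those of Abcc9 and Tagln. Erg, an ETS factor required for endothelial identity, was at 8.42, 9.37, 9.66 and 7.29 CPM in control and 5.86, 6.40, 6.45 and 2.96 CPM in mutant cortex (-0.69, SE 0.22, adjusted p = 0.0264). The related ETS factor Fli1, which blood cells and microglia also use, was not called different (-0.18, SE 0.19, adjusted p = 0.465), and its groups overlapped.

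These calls differed in how far they rested on single samples. Sox7 passed whichever of the 8 samples was left out (adjusted p at most 0.00626). Erg lost its call without control sample 2 or control sample 3 (adjusted p up to 0.0742). Sox18 lost it without control sample 2, 3 or 4 or dcKO_hGFAP-Cre sample 1 (adjusted p up to 0.107), and Sox17 in 7 of the 8 cases, the exception being dcKO_hGFAP-Cre sample 3 (adjusted p up to 0.102). The log2 fold change of Sox17 stayed between -0.72 and -0.41 throughout. With library totals, Sox17, Sox18 and Erg also lost their calls, at -0.45, -0.53 and -0.56.

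ETS and SOX factors bind short words in DNA, and both kinds of factor are among the genes that fell. A window before a start site of Erg, of Kdr and of Tek is shown. RefSeq promoters of GRCm38.p6, the build called mm10, were matched for 25 of the 36 genes, with 31 start sites, and not for Sox7, Sox17 or Sox18. Of the called transcription factors only Erg was matched; Kdr and Tek were added after their matches were seen. Each sequence is the 250 bases before a start site, 5′ to 3′ on the strand of the gene, with capitals on matches to an ETS word, read as CCGGAA or CAGGAA on either strand. They lie at chr16:95459349-95459598 for Erg (minus strand, the only one of 3 start sites with a match), chr5:75978456-75978705 for Kdr (minus strand) and chr4:94739039-94739288 for Tek (plus strand).
Erg: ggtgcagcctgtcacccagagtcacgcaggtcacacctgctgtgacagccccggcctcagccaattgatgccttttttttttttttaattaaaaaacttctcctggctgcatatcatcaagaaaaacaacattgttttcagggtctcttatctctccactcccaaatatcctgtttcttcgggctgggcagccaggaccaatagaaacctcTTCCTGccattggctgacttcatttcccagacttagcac
Kdr: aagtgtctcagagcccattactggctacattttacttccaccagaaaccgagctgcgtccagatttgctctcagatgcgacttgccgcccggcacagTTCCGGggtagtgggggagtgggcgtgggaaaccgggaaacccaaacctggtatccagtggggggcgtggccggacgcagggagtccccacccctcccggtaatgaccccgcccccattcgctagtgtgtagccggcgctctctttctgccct
Tek: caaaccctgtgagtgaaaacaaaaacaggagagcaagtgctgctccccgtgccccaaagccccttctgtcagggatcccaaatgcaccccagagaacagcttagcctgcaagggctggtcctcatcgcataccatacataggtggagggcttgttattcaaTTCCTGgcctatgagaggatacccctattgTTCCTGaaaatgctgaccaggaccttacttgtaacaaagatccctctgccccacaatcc
An ETS word was present in 11 of the 31 windows (35.5%) and in 35.1% of 32851 windows of all genes. Among the receptors not shown, the windows of Flt1, Flt4 and Eng held no ETS word and that of Tie1 held a match. A SOX word, read as ACAATG or ACAAAG on either strand, was present in 8 of the 31 windows (25.8%) and in 25.2% of all windows, among them those of Erg and Tek shown here. No ETS word overlapped a SOX word in these 31 windows, and a CArG box, the word of serum response factor, was found in 0 of the 31 and in 1.47% of all windows. The shares were thus close to those of all genes, and a match describes these letters only.

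Of the 6 junction and adhesion genes 2 were called lower (33.3%, beside 18.9% of all genes tested), and all 6 estimates were negative. No test compared these genes with each other. The tight junction gene Cldn5, the most abundant claudin of brain endothelium (ENSMUSG00000041378, chr16:18776847-18778262, plus strand), had the highest level per exon length of the 36 genes in control, at 47.7 RPKM, which is CPM divided by the exon length in kilobases. It was measured at 58.4, 55.8, 79.8 and 76.2 CPM in control and at 65.8, 64.3, 76.1 and 36.7 CPM in dcKO_hGFAP-Cre cortex. Mutant samples 1, 2 and 3 lay inside the control range and sample 4 below it, and the difference did not pass the test (-0.16, 95% interval -0.64 to 0.33, adjusted p = 0.601). Without dcKO_hGFAP-Cre sample 4 the fold change of Cldn5 was 0.04. Ocln, another tight junction membrane protein, was between 6.16 and 9.46 CPM in control and between 5.37 and 8.35 CPM in mutant cortex (-0.02, SE 0.18, adjusted p = 0.937). Tjp1, the ZO-1 scaffold beneath the junctions of many cell types, was at 82.6, 86.8, 92.2 and 79.5 CPM in control and 75.5, 60.3, 68.6 and 68.7 CPM in mutant cortex (-0.32, SE 0.09, adjusted p = 0.0119). Its groups were separated, but the call of Tjp1 was lost with library totals (-0.20, adjusted p = 0.0899).

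Pecam1, an adhesion molecule along endothelial contacts, was at 21.1, 22.0, 23.9 and 21.6 CPM in control and 16.1, 14.5, 15.7 and 10.1 CPM in dcKO_hGFAP-Cre cortex, with no overlap (-0.65, SE 0.14, adjusted p = 0.00314). Cdh5, the VE-cadherin of endothelial adherens junctions, was at 24.0, 24.2, 34.2 and 25.4 CPM in control and 23.6, 18.1, 21.6 and 9.30 CPM in mutant cortex. All mutant values of Cdh5 were below all control values, yet the spread within each group was wide and the difference did not pass (-0.58, SE 0.26, adjusted p = 0.106). Esam, which binds between neighbouring endothelial cells, differed by -0.38 (SE 0.14) and missed the threshold narrowly (adjusted p = 0.0520). DESeq2, the tool of the study, called 21 of the 36 genes lower, adding Cdh5, Esam, Abcb1a and Vwf to the 17. The same 4 genes were added when the sequencing lane was a block (samples 1 and 2 of each group on lane 5, sample 3 on lane 6 and sample 4 on lane 7), with adjusted p = 0.0303 for Cdh5, 0.0185 for Esam, 0.0271 for Abcb1a and 0.0324 for Vwf.

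**Figure D2:**
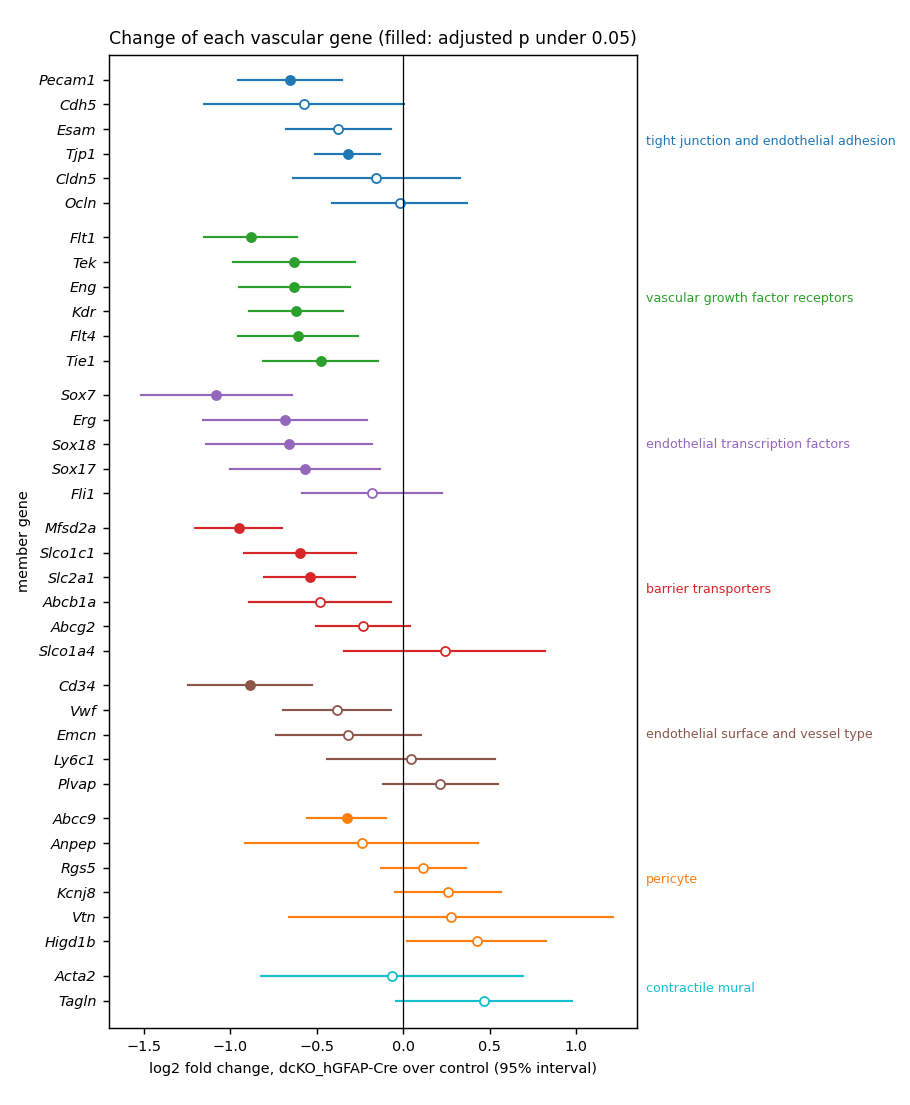
Log2 fold change of each gene, dcKO_hGFAP-Cre over control, with its 95% interval, grouped by role and ordered by size within a role, and filled where the adjusted p was under 0.05. All 6 receptors are filled and left of 0, the 8 pericyte and contractile genes hold 1 filled symbol, Abcc9, and no filled symbol lies right of 0.

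Of the 6 barrier transporters 3 were called lower (50%, beside 18.9% of all genes tested), and these genes were not tested against each other either. Mfsd2a, which carries lipids with docosahexaenoic acid into the brain and restrains vesicle traffic across the endothelium (ENSMUSG00000028655, chr4:122946850-122961188, minus strand), was at 38.8, 41.9, 46.5 and 46.2 CPM in control. In dcKO_hGFAP-Cre cortex Mfsd2a was at 23.3, 21.8, 26.3 and 18.3 CPM, 51.7% of the control mean, and this was the smallest adjusted p of the 36 genes (-0.95, SE 0.12, adjusted p = 7.2e-05). Slc2a1, the glucose transporter GLUT1, was at 35.7, 38.8, 43.7 and 47.3 CPM in control and 32.8, 27.6, 30.4 and 23.2 CPM in mutant cortex (-0.54, SE 0.12, adjusted p = 0.00445). Slco1c1, a thyroxine carrier, was at 74.2, 83.3, 69.9 and 70.1 CPM in control and 53.1, 48.2, 61.4 and 34.1 CPM in mutant cortex (-0.60, SE 0.15, adjusted p = 0.00864). The groups did not overlap in any of the 3. Astrocytes also express Slc2a1 and Slco1c1, and the summed CPM of 8 astrocyte markers was between 1290 and 1414 in control and 830.5, 746.1, 1749 and 715.9 in mutant cortex. Of these 8 markers 2 were lower (25%, beside 18.9% of all genes tested), Fgfr3 (-0.90, adjusted p = 0.000777) and Slc1a2 (-0.56, adjusted p = 0.0427), named after their values were seen. Aqp4 (-1.39, adjusted p = 0.148) and Aldh1l1 (-0.77, adjusted p = 0.104) did not pass. Sample 3, with the highest astrocyte sum, had the highest Slco1c1 of the mutants, whereas the highest mutant Slc2a1 was in sample 1, and the part of astrocytes in these falls was not tested.

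The efflux pumps were lower on average without passing the test. Abcb1a, the P-glycoprotein of the capillary wall, changed by -0.48 (SE 0.19, adjusted p = 0.0619) and Abcg2 by -0.23 (SE 0.13, adjusted p = 0.163). Slco1a4, an organic anion carrier of brain capillaries with the lowest RPKM of the 36 genes in control (0.497), spanned 2.94 to 3.35 CPM in control and 2.08 to 5.99 CPM in dcKO_hGFAP-Cre cortex. Its highest values, 5.99 and 4.03 CPM, were in the mutant samples 1 and 2, those with high Ttr, and its fold change was 0.24 (SE 0.27, adjusted p = 0.510) with all samples and -0.31 without these samples. The part of choroid plexus tissue in the Slco1a4 values was not tested.

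Of the 5 genes of the endothelial surface and of vessel type, 1 was lower (20%), close to the 18.9% of all genes tested. Cd34, a sialomucin of capillary endothelium that fibroblasts also carry, was at 24.9, 27.4, 26.2 and 27.7 CPM in control and 17.1, 13.4, 17.5 and 9.51 CPM in dcKO_hGFAP-Cre cortex (-0.89, SE 0.16, adjusted p = 0.00136). Every mutant value of Cd34 was well below the control range. Ly6c1, a surface protein of capillary and arterial endothelium, was at 1.43, 1.38, 1.33 and 1.53 CPM in control and 1.75, 1.57, 1.57 and 0.996 CPM in mutant cortex (0.05, 95% interval -0.44 to 0.53, adjusted p = 0.890). Emcn, found on capillaries and veins, differed by -0.32 (SE 0.19, adjusted p = 0.212), and Vwf, stored in endothelial granules for clotting, by -0.38 (SE 0.14, adjusted p = 0.0537). Plvap, which forms the diaphragms of fenestrated vessels such as those of the choroid plexus, was at 8.88, 8.18, 9.53 and 9.62 CPM in control and 9.45, 14.1, 9.38 and 9.21 CPM in mutant cortex (0.21, SE 0.15, adjusted p = 0.292). Its 1 high value fell in the mutant sample with the highest Ttr, and without that sample Plvap changed by 0.04. The part of choroid plexus vessels in that value was not tested.

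Of the 6 pericyte genes 1 was lower (16.7%) and 0 higher, with a median log2 fold change of 0.19. The share lower was close to the 18.9% of all genes tested. In the pathway lists, some other genes that pericytes express were lower, namely Cspg4 (-0.85, adjusted p = 0.000323), Foxf2 (-0.78, adjusted p = 0.00124) and Notch3 (-0.31, adjusted p = 0.0243). Cspg4 is also a gene of oligodendrocyte precursors, which the study reports as lost in this cortex, and their part in its fall was not tested. Pdgfrb, the receptor for Pdgfb, did not pass (-0.31, adjusted p = 0.0702), and the angiopoietin gene Angpt1 was higher (0.32, adjusted p = 0.0187). Notch3, Pdgfrb and Angpt1 are named after their values were seen. Rgs5, a regulator of G-protein signalling that is abundant in brain pericytes (ENSMUSG00000026678, chr1:169655501-169695813, plus strand), was at 135.1, 166.7, 139.6 and 131.1 CPM in control and at 168.0, 171.3, 159.0 and 121.7 CPM in dcKO_hGFAP-Cre cortex. The groups overlapped, and the interval of the difference ran from -0.13 to 0.36 on the log2 scale (0.11, SE 0.11, adjusted p = 0.450). Kcnj8 and Abcc9 encode the pore and the regulatory subunit of the potassium channel that pericytes open when ATP is low, and their estimates had opposite signs. Kcnj8 was at 7.87, 7.34, 9.53 and 8.37 CPM in control and 10.5, 10.97, 10.4 and 7.88 CPM in mutant cortex (0.26, SE 0.14, adjusted p = 0.166). Abcc9 was at 21.6, 21.6, 19.3 and 17.7 CPM in control and 17.1, 15.5, 14.7 and 16.5 CPM in mutant cortex (-0.33, SE 0.11, adjusted p = 0.0279). The exons of Abcc9 overlap those of the opposite-strand gene 5330439B14Rik, and its call was lost with library totals (-0.21) and in 5 of the 8 cases in which 1 sample was left out (control sample 1, 2 or 3, or dcKO_hGFAP-Cre sample 2 or 3, adjusted p up to 0.0736). Kcnj8 was higher with library totals (0.38) and without dcKO_hGFAP-Cre sample 4 (0.37).

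Higd1b, a small mitochondrial protein gene used as a pericyte marker, was at 2.76, 2.27, 3.09 and 2.95 CPM in control and 3.21, 4.66, 3.89 and 3.17 CPM in dcKO_hGFAP-Cre cortex. It was the 1 gene of the 36 with all mutants above all controls, and the difference did not pass (0.42, SE 0.19, adjusted p = 0.0904). Vtn, which encodes the matrix protein vitronectin, was at 26.6, 17.9, 33.6 and 20.9 CPM in control and 42.3, 24.9, 40.9 and 12.3 CPM in mutant cortex (0.28, SE 0.40, adjusted p = 0.622). Anpep, the surface peptidase CD13 of pericytes and fibroblasts, spanned 2.81 to 5.35 CPM in control and 1.78 to 5.56 CPM in mutant cortex (-0.24, SE 0.31, adjusted p = 0.569). Vtn varied in step with the leptomeningeal and perivascular fibroblast markers, whose summed CPM over 10 genes was 80.4, 52.3, 161.2 and 56.5 in control and 258.2, 83.7, 202.4 and 22.0 in mutant cortex, the same order of samples as for Vtn within each group. Of the 10 fibroblast genes 0 passed edgeR's test, also at an unadjusted p under 0.05 and with DESeq2 or limma-voom, with 5.52 to 27.2 CPM in control and 3.29 to 36.6 CPM in mutant cortex for Col1a1 and 13.5 to 47.3 against 5.92 to 62.7 CPM for Col1a2, and the part of fibroblasts in the Vtn values was not tested.

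The contractile genes were scarce at this age. Acta2, the actin of smooth muscle, was at 1.38, 1.48, 2.69 and 0.90 CPM in control and 1.496, 1.53, 2.29 and 0.91 CPM in dcKO_hGFAP-Cre cortex, values that overlapped throughout (-0.07, SE 0.35, adjusted p = 0.895). Tagln, an actin-binding protein of the same cells, was between 2.33 and 3.41 CPM in control and between 3.11 and 6.28 CPM in mutant cortex (0.47, SE 0.23, adjusted p = 0.135). Its exons overlap those of Pcsk7 on the opposite strand.

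The first-listed gene of each endothelial group was set against Rgs5 within each sample. This asks whether these genes and Rgs5 changed to the same extent and does not depend on the scaling of the libraries. Rgs5 does not stand for all pericyte genes, of which 2 had negative and 4 positive fold changes. The ratio of Kdr to Rgs5 was 0.291, 0.287, 0.378 and 0.333 in control and 0.200, 0.178, 0.203 and 0.191 in dcKO_hGFAP-Cre cortex. Its log2 difference was -0.73, with all mutants below all controls (exact permutation test, two-sided, p = 0.0286, the smallest that 4 against 4 allows, and 0.0476 adjusted over the 5 ratios). Sox17 (0.0284 ± 0.00335 against 0.0175 ± 0.00349, SD, n = 4, log2 difference -0.71) and Slc2a1 (0.293 ± 0.0561 against 0.184 ± 0.0157, SD, n = 4, log2 difference -0.65) gave the same exact permutation p of 0.0286 and the same adjusted p of 0.0476. The ratio of Cldn5 to Rgs5 was 0.480 ± 0.119 in control and 0.387 ± 0.0727 in mutant cortex (SD, n = 4) and overlapped between groups (log2 difference -0.29, exact permutation p = 0.229, adjusted p = 0.286). For Ly6c1 the log2 difference was -0.08 (exact permutation p = 0.543, adjusted p = 0.543). Kdr, Sox17 and Slc2a1 thus fell relative to Rgs5, while no difference was detected for Cldn5 and Ly6c1.

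**Figure D3:**
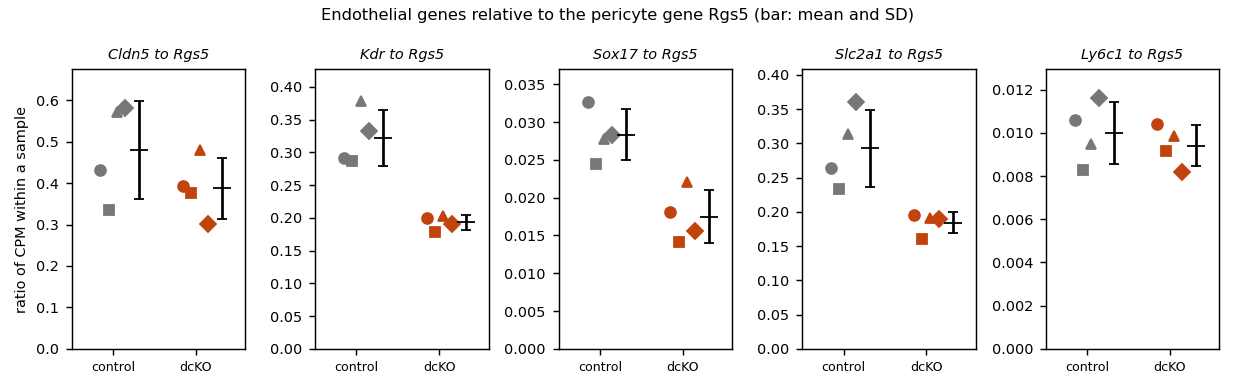
Ratio of CPM of an endothelial gene to the pericyte gene Rgs5 within each sample (vertical axes from 0), grey for control and orange for dcKO_hGFAP-Cre, with circle, square, triangle and diamond for replicates 1 to 4 and the bar giving mean and SD of 4 samples. For Kdr, Sox17 and Slc2a1 the 4 orange symbols lie under all grey ones, and for Cldn5 and Ly6c1 the groups overlap.

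Endothelial genes also differed from each other within samples. The ratio of Flt1 to Cldn5 was 0.382, 0.494, 0.361 and 0.339 in control and 0.226, 0.205, 0.217 and 0.331 in dcKO_hGFAP-Cre cortex, given as a description. Mutant sample 4 was closest to the controls in this ratio, and it is the mutant sample in which Cldn5 itself was low. This sample had the lowest mutant value in 26 of the 28 endothelial and barrier genes and in 7 of the 8 pericyte and contractile genes. It was below all controls in 27 of the 28 endothelial and barrier genes, compared with 19, 23 and 19 for the mutant samples 1, 2 and 3. Among the controls, sample 3 was highest in 17 of the 28. Without dcKO_hGFAP-Cre sample 4, 16 of the 36 genes were lower and 1, Kcnj8, was higher.

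Summed over the 28 endothelial and barrier genes, the level was between 630.1 and 744.2 CPM in control and 546.7, 477.5, 548.6 and 368.7 CPM in the dcKO_hGFAP-Cre samples, without overlap. The 8 pericyte and contractile genes summed to between 187.1 and 224.1 CPM in control and to 252.4, 235.3, 240.9 and 167.3 CPM in mutant cortex. Mutant samples 1, 2 and 3 were above all controls in this sum and sample 4 was below them. Most of the sum was Rgs5, at 131.1 to 166.7 CPM in control and 168.0, 171.3, 159.0 and 121.7 CPM in the mutants. Vtn added 42.3, 24.9, 40.9 and 12.3 CPM in the mutants. The sum therefore does not show a rise of the 8 genes as a group, of which 0 were called higher and 3 had negative estimates. Markers of other cells were summed in the same samples. Of the erythroid markers (8 genes, 6 tested) 0 passed edgeR's test, also at an unadjusted p under 0.05 and with DESeq2 or limma-voom. Hba-a1 changed by -0.05 and Hba-a2 by -0.08. Hbb-bs reached at most 40.4 CPM among the controls and stood at 62.1, 88.3, 78.6 and 22.8 CPM in the mutants (0.82, adjusted p = 0.138). Hbb-bt changed by 0.45 (adjusted p = 0.348), and both Hbb genes were named after their values were seen. The erythroid markers summed to 54.7 to 77.1 CPM over the controls, against 94.8, 130.6, 117.2 and 37.4 CPM for the mutants. Those of microglia and macrophages (10 genes) summed to between 117.6 and 158.6 CPM in control and between 214.2 and 259.7 CPM in mutant cortex, with 7 of 10 higher, Cx3cr1 at 0.44 (adjusted p = 0.0148) and P2ry12 at 0.01 (adjusted p = 0.983). Choroid plexus markers (10 genes, 8 tested, 3 higher) summed to between 8.47 and 17.2 CPM in control and to 632.1, 1202, 27.2 and 12.4 CPM in mutant cortex, and Kl, another of them, changed by -0.50 (adjusted p = 0.288).

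Marker lists of neurons held changed genes too. Cortical neuron markers (8 genes) summed to between 1879 and 2004 CPM in control and between 1039 and 1194 CPM in dcKO_hGFAP-Cre cortex, with 6 of 8 lower, Neurod6 at -2.04 (adjusted p = 1.37e-06) and Neurod2 at -0.43 (adjusted p = 0.00621). Striatal neuron markers (8 genes) summed to between 122.0 and 174.9 CPM in control and between 364.5 and 703.1 CPM in mutant cortex, with 5 of 8 higher, Ppp1r1b at 2.92 (adjusted p = 4.54e-08) and Drd2 at 2.08 (adjusted p = 0.00984). Tbr1 (0.07, adjusted p = 0.594) and Bcl11b (0.13, adjusted p = 0.621), the cortical neuron markers that did not pass, are named after their values were seen. The part of these differences in the vascular values was not tested.

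**Figure D4:**
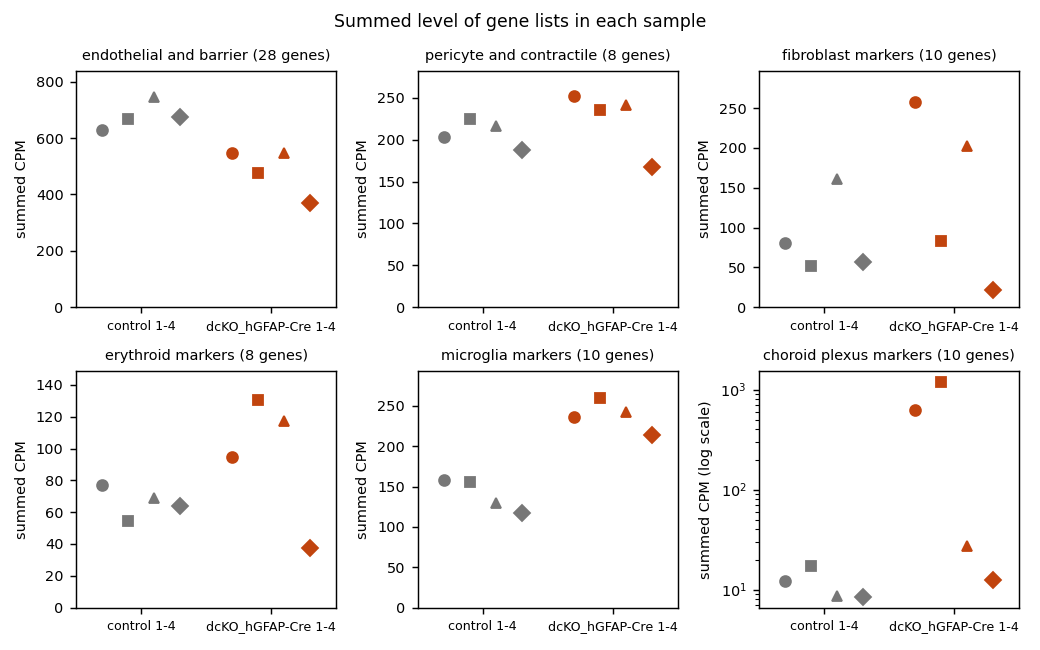
Summed CPM of the endothelial and barrier genes, the pericyte and contractile genes and 4 lists of markers of other cells in each sample (vertical axes from 0, except the choroid plexus panel, which is on a log scale), grey for control and orange for dcKO_hGFAP-Cre, with circle, square, triangle and diamond for replicates 1 to 4. The endothelial and barrier sum is lower in all 4 mutants, from 368.7 to 548.6 CPM, and mutant sample 4 is the lowest mutant in each of the 6 panels.

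Other genes of the same pathways were examined in 6 groups. They were listed by function, with earlier results of these data known. Their counts stand beside 18.9% lower and 18.6% higher over all genes tested. Of the 17 tested VEGF, angiopoietin and tip cell genes, 8 were lower (47.1%) and 2 higher (11.8%), with a median of -0.10. Nrp1, a VEGF and semaphorin co-receptor that neurons also use, fell from 58.4 ± 3.96 to 26.2 ± 3.34 CPM (SD, n = 4, log2 fold change -1.16, adjusted p = 6.83e-06 in edgeR's test). Vegfd (-1.07, adjusted p = 0.00102), a ligand of Flt4, and Apln (-0.79, adjusted p = 0.000569), a tip cell peptide, were lower as well. Cxcr4, the receptor for the chemokine Cxcl12 on migrating neurons and on tip cells, rose from 25.6 ± 2.65 to 54.4 ± 12.8 CPM (SD, n = 4, 1.08, adjusted p = 0.000216). The other higher gene was the angiopoietin gene Angpt1, named after its value was seen. It went from 16.4 ± 0.759 to 20.5 ± 1.1 CPM (SD, n = 4, 0.32, adjusted p = 0.0187 in edgeR's test). The level of Vegfa, the main ligand of Kdr and Flt1, was 52.6 ± 4.88 CPM in control and 51.4 ± 3.39 CPM in dcKO_hGFAP-Cre cortex (SD, n = 4, -0.03, SE 0.09, adjusted p = 0.793), a gene named after its value was seen.

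In the group of Wnt and barrier induction, 6 of 18 were lower (33.3%) and 3 higher (16.7%), the latter near the share over all genes, with a median of -0.40. Foxf2, a pericyte transcription factor needed for the barrier, fell by 0.78 on the log2 scale (adjusted p = 0.00124), and Apcdd1, a Wnt antagonist induced by Wnt signalling, by 0.70 (adjusted p = 0.000494). Fzd4, the Frizzled receptor for norrin on endothelium, changed by -0.69 (adjusted p = 0.0130) and Tnfrsf19, a Wnt-responsive receptor also found in glia, by -0.68 (adjusted p = 0.0170). The 3 higher genes of the group were Axin2 (0.61, adjusted p = 0.00054), Itm2a (0.61, adjusted p = 0.0313) and Wnt7a. Axin2 and Itm2a are named after their values were seen. The neural ligands that act on brain endothelium moved in opposite directions, and both were named after their values were seen. Wnt7a went from 24.2 ± 2.20 to 34.3 ± 2.72 CPM (SD, n = 4, 0.51, adjusted p = 0.00184 in edgeR's test), and Wnt7b from 127.7 ± 13.0 to 81.8 ± 9.76 CPM (SD, n = 4, -0.64, adjusted p = 0.000471 in edgeR's test).

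Mural recruitment and TGF-beta genes were lower in 6 (42.9%) and higher in 1 (7.14%) of 14, with a median of -0.33. Tgfbr1, a TGF-beta receptor of many cell types, fell from 117.5 ± 4.54 to 48.4 ± 1.55 CPM (SD, n = 4, -1.28, adjusted p = 4.1e-07 in edgeR's test). Pdgfb, the signal by which endothelial cells recruit pericytes, changed by -0.63 (adjusted p = 0.00148) and Bmpr2, a BMP receptor, by -0.61 (adjusted p = 0.000833). Cspg4, the NG2 proteoglycan of pericytes and of oligodendrocyte precursors, changed by -0.85 (adjusted p = 0.000323).

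Further barrier endothelial genes numbered 22, of which 9 were lower (40.9%) and 2 higher (9.09%), with a median of -0.39. Cav1, which forms caveolae, went from 40.7 ± 3.97 to 17.4 ± 6.61 CPM (SD, n = 4, -1.22, adjusted p = 0.00148 in edgeR's test). Slc7a5, a large neutral amino acid transporter that neurons also carry, changed by -0.70 (adjusted p = 3.14e-05), and Ptprb, the phosphatase that restrains Tek, by -0.63 (adjusted p = 0.00329). The junction molecule Jam2 was higher, by 0.64 (adjusted p = 0.000194).

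Genes of the vascular basement membrane were lower in 7 of 10 (70%) and higher in 0, also in 0 at an unadjusted p under 0.05 and with DESeq2 or limma-voom, with a median of -0.51. They included the laminin chains Lamb1 (-0.66, adjusted p = 0.00381) and Lama4 (-0.61, adjusted p = 0.00180), the collagen Col4a1 (-0.63, adjusted p = 0.00225) and Nid1, which links the laminin and collagen networks (-0.61, adjusted p = 0.0372). Of the 10 contractile smooth muscle genes 7 were tested in edgeR, with 0 lower, also in 0 at an unadjusted p under 0.05 and with DESeq2 or limma-voom, 1 higher (14.3%) and a median of 0.01. The higher gene was Tpm2, a tropomyosin, at 0.63 (adjusted p = 0.0137).

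**Figure D5:**
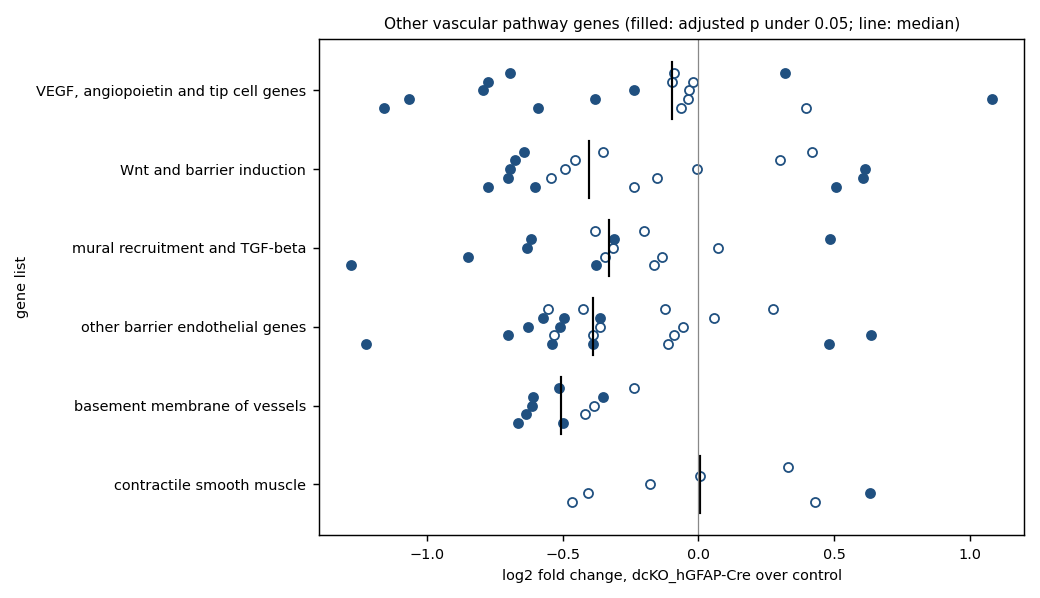
Log2 fold change, dcKO_hGFAP-Cre over control, of each tested gene in 6 further groups of vascular genes (vertical position within a row has no meaning), filled where the adjusted p was under 0.05, with a black line at the median of the group. The basement membrane genes all lie left of 0, with a median of -0.51, and the contractile smooth muscle genes lie on both sides of it.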

How the data were processed

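RNA was taken from the P3 cortex of 4 control and 4 dcKO_hGFAP-Cre mice, and libraries were made with the TruSeq RNA kit. The authors deposited raw read counts per Ensembl gene, made with featureCounts on mm10 (genome build per the labels), without normalization. The aligner, the gene annotation and the strand setting are not given in the sources used here. Symbols, coordinates and exon lengths were taken from GENCODE vM21, of the same build, for 48349 of 48709 genes.

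The main test was edgeR's quasi-likelihood F test (version 4.0.16, R version 4.3.3), with robust estimation, TMM normalization, the default filter with a minimum count of 10, no block, and Benjamini-Hochberg adjustment over 16525 genes. Standard errors are the fold change divided by the square root of F. CPM and RPKM were computed from the deposited counts. Exact permutation tests over the 70 arrangements of 4 against 4 samples cannot give a p below 0.0286. No pair of samples agreed within sampling noise. Samples were grouped by the labels. Same-numbered samples of the groups did not deviate together (correlations 0.171, -0.0679, 0.213 and -0.0238), and nothing says that a number marks a shared litter.

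The alternatives were DESeq2 (version 1.42.0), limma-voom (limma version 3.58.1), DESeq2's size factors, library totals, no filter, at least 10 counts in every sample, no robust estimation, a block for the replicate number, a block for the sequencing lane, each sample left out, and, chosen after seeing the data, dcKO_hGFAP-Cre samples 1 and 2 left out together. The fit was tested on simulated data. The stopping limit of that test, first a number of changed genes to recover, was missed because of genes with few counts, and was replaced by limits on bias, sign and false calls.

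The 36 genes, the pathway lists and the marker lists of other cells were chosen with earlier results of these data known. Values per sample are given for genes past the threshold and the first-listed gene of each role, and for some others named after their values were seen. From each pathway list up to 4 genes are named by largest fold change among those past the threshold with a mean of at least 1 CPM, and from each marker list the first 2. Vegfa, Angpt1, Wnt7a, Wnt7b, Axin2, Itm2a, Notch3, Pdgfrb, Fgfr3, Slc1a2, Hbb-bs, Hbb-bt, Tbr1 and Bcl11b fall outside this rule and were named after their values were seen. The proteins of Sox7, Sox17, Sox18 and Cldn5 were not used here.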

Additional observations from a re-analysis of the deposited data

Results flagged for a closer look

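Within each group of 4 samples, 4 of the 72 sets of values had 1 sample far from the other 3, its gap to the nearest of them exceeding the critical share of the whole range in Dixon's test, while chance gives about 1 in 20. Cdh5 was highest in control sample 3, at 34.2 CPM with the next at 25.4 CPM (gap 0.864 of the range). Erg was lowest in dcKO_hGFAP-Cre sample 4, at 2.96 CPM with the next at 5.86 CPM (gap 0.831). Plvap was highest in dcKO_hGFAP-Cre sample 2, at 14.1 CPM with the next at 9.45 CPM (gap 0.950), and Ttr was highest in the same sample, at 1128 CPM. Tagln was lowest in control sample 4, at 2.33 CPM with the next at 3.30 CPM (gap 0.905).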

How the results depend on the processing

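With the other planned settings apart from library totals and left-out samples, 17 to 21 of the 36 genes were lower and 0 higher, and all 17 calls were kept in each; Esam, Vwf, Abcb1a and Cdh5 were added in some. Library totals gave 11 lower and 2 higher, losing Tjp1, Tie1, Sox17, Sox18, Erg and Abcc9, and turned Ocln to 0.10 and Acta2 to 0.055. Limma-voom turned Ly6c1 to -0.0011. The replicate numbers were not shown to pair the samples; with the replicate block 21 genes were lower and 0 higher, and over all genes 2982 were lower and 2932 higher. The lane block gave 21 lower and 0 higher, and 3242 lower and 3208 higher over all genes. Leaving out 1 sample gave 12 to 17 lower and 0 to 1 higher, with 12 lower without control sample 2 and without control sample 3, and over all genes 2375 to 3273 lower and 2199 to 3308 higher. Of the 17 calls, 12 were kept in all 8 cases. Estimates near 0 changed sign among these cases, with ranges of -0.285 to 0.0405 for Cldn5, -0.114 to 0.142 for Ocln, -0.0747 to 0.459 for Slco1a4, -0.0542 to 0.215 for Ly6c1 and -0.328 to 0.317 for Acta2 (Ocln and Acta2 without control sample 3, Slco1a4 and Ly6c1 without dcKO_hGFAP-Cre sample 1, and Cldn5, Ocln at 0.109 and Acta2 at 0.148 without dcKO_hGFAP-Cre sample 4). Without dcKO_hGFAP-Cre samples 1 and 2 together, 12 genes were lower and 0 higher, over all genes 1581 were lower and 1388 higher in this fit of fewer samples, and Slco1a4 (-0.31), Ly6c1 (-0.15) and Rgs5 (-0.030) changed sign. The cause of the other shifts was not tested. Among the marker lists, the choroid plexus had 3 higher calls in the main test, 6 with DESeq2 and 1 with limma-voom, astrocytes 2 lower and 5 with limma-voom, contractile smooth muscle 1 higher and 2 with DESeq2, and further barrier genes 2 higher and 1 with limma-voom. Genes near 1 CPM, such as Acta2 and Ly6c1, are limited by depth.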
